A study of Mus musculus with 6 samples.

Results

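Complement is a cascade of blood and tissue proteins that tags microbes, dying cells and debris. Here 9 of its genes were followed in mouse bone 21 days after a focal dose of X-rays. They are C1qa, C1qb, C1qc, C2, C3, C4b, Cfb, Cfp and C3ar1, taken by gene name from a table of 43346 genes, and all 9 were found. The samples were pieces of the distal femoral metaphysis, the flared end of the shaft, from C57BL/6 mice aged 4 months. The right femur had received 24 Gy (gray, the unit of absorbed dose) at 6.6 Gy per minute over 5 mm, and the left, non-radiated femur was the control. There were 3 radiated and 3 non-radiated libraries, and because the control was the opposite leg, the controls came from mice that had been irradiated in the other leg. The question was which transcripts differed before a loss of bone that the study saw a week later. Labels name no genotype beyond the strain.

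The classical pathway starts when C1q, a bundle of 3 kinds of chain encoded by C1qa, C1qb and C1qc, binds antibody or a damaged surface. Its proteases cut C4 and C2, and the alternative pathway uses factor B (Cfb), factor D (Cfd) and properdin (Cfp). All routes meet at C3, whose small fragment C3a is read by the receptor C3ar1. Most circulating components are made by the liver, whereas C1q is made mainly by macrophages and dendritic cells, so a tissue sample reports local transcription only.

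Total gene counts were 34034251 to 40993415 in non-radiated and 35919292 to 48708383 in radiated libraries. In non-radiated library 2 a single row, AY036118, held 32.9% of the counts, against 0.321% to 5.61% elsewhere, so that its other genes had less depth. The 6 listed bone genes, among them Col1a1 and Ibsp, were present in every library, at summed levels of 8127 to 12350 CPM in non-radiated and 5999 to 7751 CPM in radiated libraries. CPM is the usual count scaled to library size, here after correction by the trimmed mean of M-values (TMM). Of 6 hepatocyte markers, Ttr and Fgb had no count in any library, and Alb, Apoa1 and Apoh had 0 to 2 counts per library. The other one, Serpina1a, which encodes an antitrypsin, had 121 to 228 counts in non-radiated and 35 to 114 in radiated libraries and fell, at a log2 fold change of -1.74 (edgeR p 0.0267 after adjustment). The 12 skeletal muscle markers summed to 194, 343 and 167 CPM in non-radiated libraries 1, 2 and 3 and to 745, 2465 and 198 CPM in radiated libraries 1, 2 and 3, although muscle had been removed. Radiated libraries 1 and 2 thus held more muscle RNA than the other 4.

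The C1q genes lie side by side on the minus strand of chromosome 4, within 18675 bases (136880129 to 136898803, in the table's coordinates, for which the submitters' notes name build mm10). The set of RefSeq promoter windows used here (build GRCm38.p6) held 5 of the 9 members. Each window ran from 250 bases before to 50 bases after the gene's start. Those of C1qb, C1qc and C3ar1 are shown because these transcripts were all higher in radiated femur. Capitals mark matches, on either strand, to GAGGAA (the core bound by the myeloid factor PU.1) and to GGGA and CC with 4 bases of any kind between them (an NF-kB type motif). The windows are, in order, chr4:136886151-136886450, chr4:136892865-136893164 and chr6:122856108-122856407, all on the minus strand and written 5′ to 3′.
C1qb: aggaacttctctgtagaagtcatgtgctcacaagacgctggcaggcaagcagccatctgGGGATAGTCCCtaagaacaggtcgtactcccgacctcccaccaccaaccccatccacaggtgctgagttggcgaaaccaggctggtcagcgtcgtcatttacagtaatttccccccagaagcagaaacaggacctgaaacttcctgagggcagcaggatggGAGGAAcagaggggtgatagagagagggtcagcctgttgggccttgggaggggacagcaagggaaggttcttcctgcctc
C1qc: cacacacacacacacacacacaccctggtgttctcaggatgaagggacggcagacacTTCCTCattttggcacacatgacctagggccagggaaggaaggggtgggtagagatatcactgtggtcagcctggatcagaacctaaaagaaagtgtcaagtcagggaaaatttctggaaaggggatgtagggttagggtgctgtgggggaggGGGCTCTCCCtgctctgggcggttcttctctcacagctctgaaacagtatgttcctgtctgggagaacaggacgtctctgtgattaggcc
C3ar1: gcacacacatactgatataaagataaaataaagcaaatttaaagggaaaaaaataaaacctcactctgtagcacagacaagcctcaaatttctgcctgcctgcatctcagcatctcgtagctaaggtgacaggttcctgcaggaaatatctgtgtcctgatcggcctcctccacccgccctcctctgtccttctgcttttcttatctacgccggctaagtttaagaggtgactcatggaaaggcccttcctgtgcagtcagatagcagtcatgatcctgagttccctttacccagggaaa
The C1qc start used by RefSeq lies inside the gene's extent in the table. C1qb and C1qc each held both motifs and C3ar1 held neither. Over 32817 RefSeq windows of the same length, 28.3% held GAGGAA and 20.7% held the NF-kB type motif. Cfp held 2 GAGGAA matches and C3 held 3 NF-kB type matches, and neither of these transcripts had an adjusted p under 0.05. The 2 NF-kB type matches of C1qb overlap, 1 on each strand. No window of these 5 held an interferon response motif (GAAA, 2 bases of any kind, GAAA) or TTGCNNCAA, a C/EBP motif, which 3.43% and 2.08% of all windows held. Matches of this kind are descriptions and not evidence of binding.

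Of the 9 members, 5 rose in radiated femur and none fell. They were the 3 C1q chains, Cfb and C3ar1, by 1.49- to 1.76-fold. C4b, Cfp, C3 and C2 did not pass the test. All 9 passed the filter on low counts, and edgeR's quasi-likelihood test covered 18757 genes, with Benjamini-Hochberg adjustment across them. Of those genes, 7.8% had an adjusted p under 0.05, 4.56% higher and 3.24% lower. In these 5 members every radiated library was above every control, whereas 14.4% of all genes tested were higher with no overlap. The median log2 fold change of the members was 0.57, against 0.0023 over all genes tested. Members were chosen with earlier results of these data known, so their count and median are descriptions and not a test of the group. Labels do not say that libraries of a group came from separate animals, so p-values measure the spread between these samples, which may be technical. In these bulk samples, more cells of a type and more RNA per cell cannot be told apart.

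**Figure D1:**
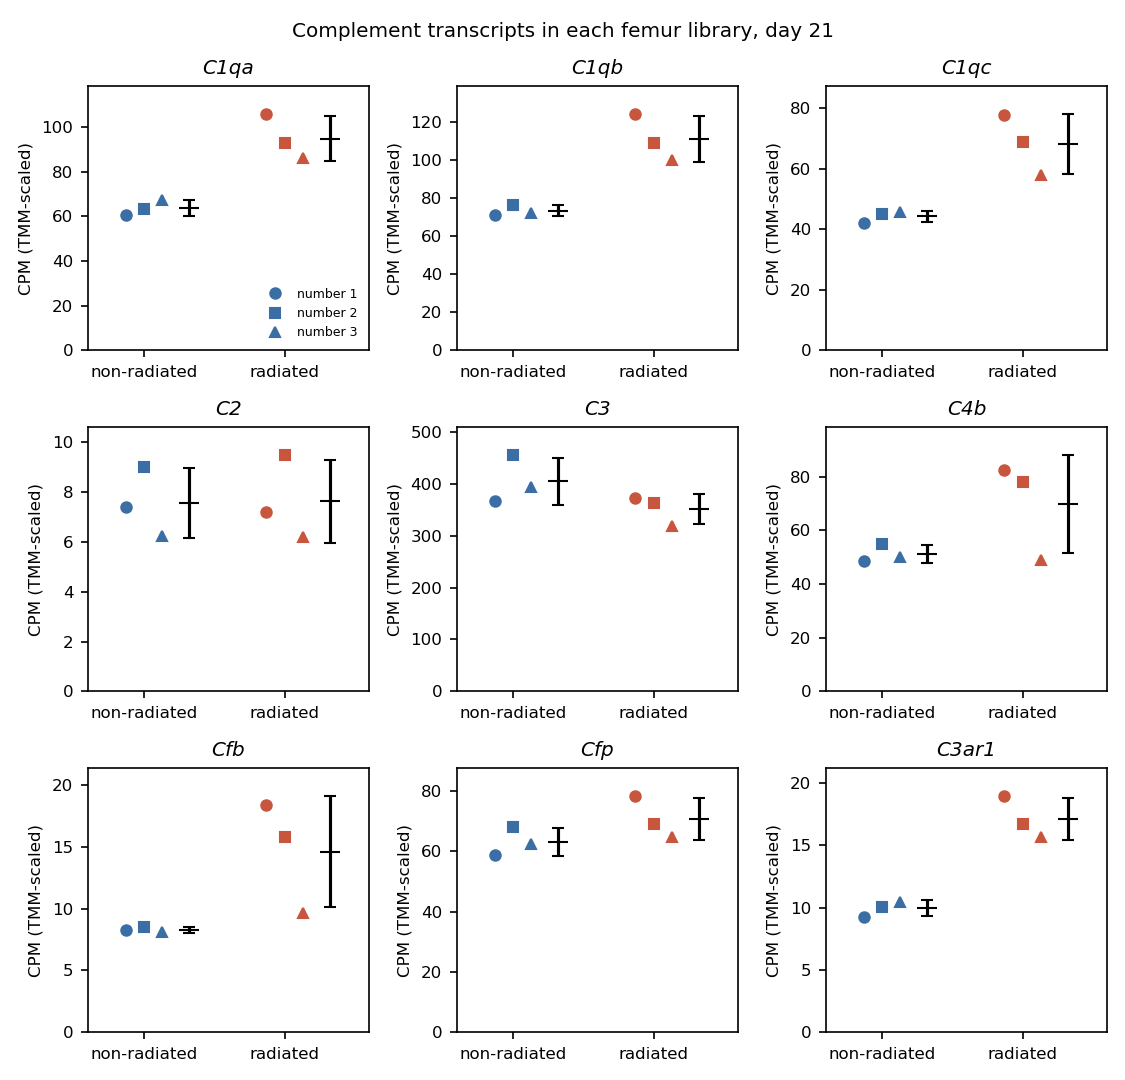
TMM-scaled CPM (vertical axes, from 0) of the 9 complement genes in the 3 non-radiated and 3 radiated femur libraries. Circles, squares and triangles are libraries 1, 2 and 3, and black bars are mean and SD. The 3 C1q chains, Cfb and C3ar1 have every radiated library above every non-radiated one, and in C4b and Cfb radiated library 3 lies near the controls.

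The C1q chains, which recognise the target, rose by about the same factor. C1qa (ENSMUSG00000036887, chromosome 4, 136895917 to 136898803), the A chain, was at 60.6, 63.2 and 67.4 CPM in non-radiated libraries 1, 2 and 3 and at 106, 92.7 and 86.0 CPM in radiated libraries 1, 2 and 3. The lowest radiated library thus stood above the highest control, and radiated library 1 was the highest of all. The means were 63.7 ± 3.42 and 94.8 ± 9.97 CPM (SD, n = 3 each), a log2 fold change of 0.57 (± 0.080 SE, edgeR p 0.00282 after adjustment) or 1.49-fold (95% interval 1.31 to 1.68).

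C1qb (ENSMUSG00000036905, chromosome 4, 136880129 to 136886187), the B chain, was at 71.1, 76.7 and 72.4 CPM in non-radiated and at 124, 109 and 100 CPM in radiated libraries. Its log2 fold change was 0.60 (± 0.079 SE, edgeR p 0.00212 after adjustment), or 1.51-fold. C1qc (ENSMUSG00000036896, chromosome 4, 136889804 to 136893065), the C chain, was at 42.1, 45.1 and 45.6 CPM in non-radiated and at 77.7, 68.8 and 57.9 CPM in radiated libraries. Its log2 fold change was 0.62 (± 0.099 SE, edgeR p 0.00556 after adjustment), or 1.54-fold. All 3 chains had the same order among radiated libraries, with library 1 highest and library 3 lowest. After each profile was centred on its mean, any 2 chains differed by a root mean square of 0.051 to 0.054 on the log2 scale over the 6 libraries. Each chain was called in all 14 alternative settings, with log2 fold changes from 0.49 to 0.82 over the 3. With the muscle level as a covariate the values were 0.53, 0.53 and 0.50 for the A, B and C chains (edgeR p 0.0138, 0.0102 and 0.0260 after adjustment).

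C3ar1 (ENSMUSG00000040552, chromosome 6, 122847138 to 122856161), the receptor for C3a on myeloid cells, had the smallest adjusted p of the members. It was at 9.27, 10.1 and 10.5 CPM in non-radiated and at 18.9, 16.7 and 15.7 CPM in radiated libraries, again with radiated library 1 highest and no overlap. The log2 fold change was 0.78 (± 0.10 SE, edgeR p 0.00191 after adjustment), or 1.72-fold (95% interval 1.47 to 2.01). It was called in all 14 alternatives, from 0.70 to 0.97.

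Of the alternative pathway, Cfb rose and Cfp did not pass the test. Cfb (ENSMUSG00000090231, chromosome 17, 34856374 to 34862518) encodes factor B, the protease of the alternative C3 convertase. It was at 8.23, 8.54 and 8.09 CPM in non-radiated and at 18.3, 15.8 and 9.66 CPM in radiated libraries. Radiated libraries 1 and 2 were far above the controls, and radiated library 3 was only just above them. The log2 fold change was 0.82 (± 0.20 SE, edgeR p 0.0402 after adjustment), the largest of the 9, with the largest adjusted p of the 5 calls. The call was lost in 5 of the 6 fits that left out 1 library (adjusted p 0.121, 0.108 and 0.0948 without non-radiated library 1, 2 and 3, and 0.132 and 0.0868 without radiated library 1 and 2). Without radiated library 3 the log2 fold change was 1.04 (adjusted p 0.00113). It was also lost with limma-voom (adjusted p 0.0828) and with the muscle covariate, under which the log2 fold change was 0.47 (adjusted p 0.245). The radiated libraries with high Cfb were those with high muscle markers, and the part of muscle RNA in its level was not tested beyond that covariate.

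The Cfb and C2 rows are uncertain for another reason. The annotation places Gm20547 on the same strand across Cfb and part of C2 (chromosome 17, 34856412 to 34882042), and a read in a shared exon could be given to any of these rows or to none. Gm20547 itself was at 12.2 ± 0.980 CPM in non-radiated and 18.2 ± 4.68 CPM in radiated libraries (SD, n = 3 each), with a log2 fold change of 0.59 (edgeR p 0.0785 after adjustment). When the 3 rows were summed into 1 the log2 fold change was 0.53 (edgeR p 0.0933 after adjustment). C2 (ENSMUSG00000024371, chromosome 17, 34862604 to 34898265), the protease of the classical C3 convertase, lies 85 bases from Cfb and was at 7.41, 9.02 and 6.25 CPM in non-radiated and at 7.21, 9.48 and 6.21 CPM in radiated libraries. The groups overlapped fully and library 2 was highest in each. Its log2 fold change was 0.022 (95% interval -0.39 to 0.44, edgeR p 0.964 after adjustment), and its sign turned in 3 alternatives, all without a call. C2 also overlaps Zbtb12 on the other strand.

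Cfp (ENSMUSG00000001128, chromosome X, 20925454 to 20931555) encodes properdin, which steadies the alternative convertase. It was at 58.9, 68.0 and 62.3 CPM in non-radiated and at 78.3, 69.2 and 64.6 CPM in radiated libraries. Radiated library 3 lay below non-radiated library 2. The log2 fold change was 0.17 (95% interval -0.018 to 0.35, edgeR p 0.283 after adjustment), with no call in any alternative.

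C3 and C4b are the large thioester proteins that bind covalently to surfaces. C3 (ENSMUSG00000024164, chromosome 17, 57203970 to 57228136) was at 366, 454 and 393 CPM in non-radiated and at 372, 363 and 319 CPM in radiated libraries. Non-radiated library 2 was the highest and radiated library 3 the lowest, and the other 4 lay between. The log2 fold change was -0.20 (± 0.092 SE, 95% interval -0.41 to 0.0057, edgeR p 0.245 after adjustment), with no call in any alternative. Under library totals alone, which moved the median of all genes to 0.195, the C3 value was 0.011.

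C4b (ENSMUSG00000073418, chromosome 17, 34728380 to 34743882) was at 48.6, 54.8 and 50.1 CPM in non-radiated and at 82.4, 78.0 and 48.8 CPM in radiated libraries. Radiated libraries 1 and 2 were above all controls and radiated library 3 was within them. The log2 fold change was 0.45 (± 0.17 SE, edgeR p 0.151 after adjustment). Without radiated library 3 it was 0.65 and called (adjusted p 0.00125), and with the muscle covariate it was 0.11 (adjusted p 0.749). It was also called under library totals alone (adjusted p 0.0410) and with no filter (adjusted p 0.0272). The transcripts of C4b and its neighbour C4a matched at 96.0% over 5378 bases, so reads could be shared. C4a held 38 to 103 counts per library against 1373 to 4164 for C4b, and summing the rows gave 0.44 (edgeR p 0.148 after adjustment).

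**Figure D2:**
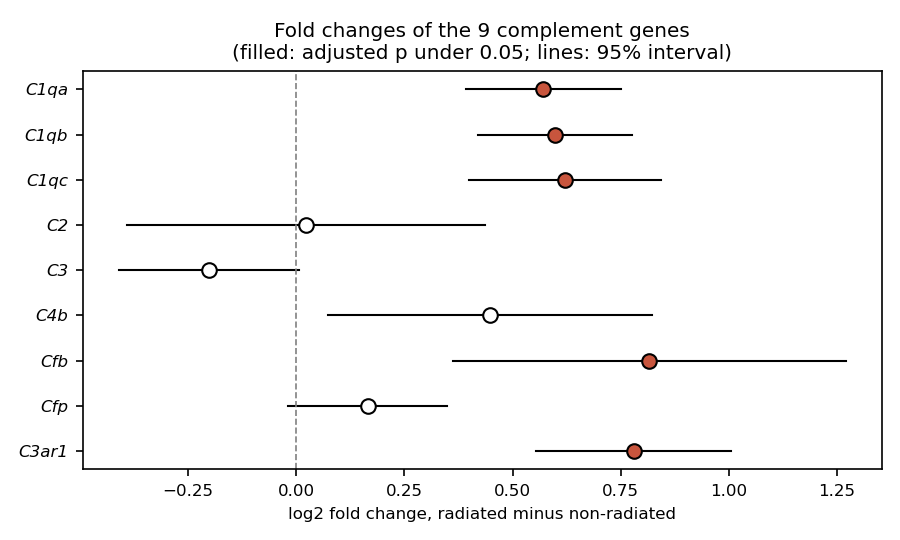
Log2 fold change, radiated minus non-radiated (horizontal axis), of the 9 complement genes, with 95% intervals as lines. Filled points have an edgeR adjusted p under 0.05. The C1q chains cluster between 0.57 and 0.62, C3ar1 and Cfb lie near 0.8, and C3 is the only member with a negative value.

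Per length, the order of levels changed at its top. In non-radiated femur C3 was highest, at 78.6 ± 8.83 CPM per kilobase (SD, n = 3), followed by C1qb at 67.5 ± 2.71 and C1qa at 61.3 ± 3.29. In radiated femur C1qb led, at 102 ± 11.2 CPM per kilobase, then C1qa at 91.1 ± 9.59 and C3 at 68.3 ± 5.59. The lower places were the same in both groups: Cfp, C1qc, C4b, Cfb, C3ar1 and C2, down to 1.95 ± 0.359 and 1.97 ± 0.432 CPM per kilobase for C2 in non-radiated and radiated femur. In the controls the libraries of C3, C1qb and C1qa did not overlap. In radiated femur C1qb and C1qa overlapped, as did Cfp and C1qc, and C3 lay below both leading chains. C3ar1 and C2 overlapped in the controls. Cfb and C3ar1, at 5.17 ± 1.58 and 3.97 ± 0.388 CPM per kilobase in radiated femur, also differed by less than their larger SD.

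By same-numbered libraries the differences were not uniform. For number 1 the log2 difference was 0.80, 0.80 and 0.88 for C1qa, C1qb and C1qc, for number 2 it was 0.55, 0.51 and 0.61, and for number 3 it was 0.35, 0.47 and 0.34. C3ar1 went from 1.03 to 0.73 and 0.58, and Cfb from 1.16 to 0.89 and 0.25, for numbers 1, 2 and 3. C3 was 0.026, -0.32 and -0.30. With no overlap between groups, the members that rose had to do so in every number, and number 3 was the smallest each time.

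C1q is made mainly by macrophages, and their markers moved too. Of 15 macrophage markers 13 had positive log2 fold changes, 7 of them called (Adgre1, Cd68, Mertk, Axl, Siglec1, Trem2 and Gpnmb), and Cd163 and Timd4 fell. Summed, the 15 were at 1188 to 1303 CPM in non-radiated and 1473 to 1661 CPM in radiated libraries. No marker was at 0 in all libraries. Adgre1, which encodes F4/80, had a log2 fold change of 0.42 (edgeR p 0.0278 after adjustment), Axl of 0.43 (0.00284) and Trem2 of 0.77 (0.00137). Cd163, the haemoglobin scavenger receptor, and Timd4, a phosphatidylserine receptor of resident macrophages, were at -0.91 (0.00193) and -1.46 (0.0264). The mean log2 level of the C1q chains exceeded that of the markers by 0.56 ± 0.13 in non-radiated and 0.94 ± 0.041 in radiated libraries (SD, n = 3 each). The difference of 0.38 had an exact two-sided permutation p of 0.1, the smallest that 20 labelings can give, and every radiated library was above every control. The labelings did not keep same-numbered libraries together, so this p ignores any pairing of them. The size of this difference depended on the markers used. Against the 13 markers other than the 2 that fell, a list cut by its own values and so not tested, it was 0.16. Against the 6 markers not called in either direction, also a list cut by its values, it was 0.29. Trem2 and Gpnmb, both at 0.77, were above each of the C1q chains in log2 fold change. All the other markers of the 15 were below each chain, the next being Siglec1 at 0.55. The part of macrophage number in the C1q values was not tested beyond this ratio.

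Markers of other cells that can make complement moved in several directions. The 12 neutrophil markers, whose cells also make properdin, all had negative values, with a median of -0.35 and 1 called, and summed to 15680 to 19760 CPM in non-radiated and 12380 to 14530 CPM in radiated libraries. Of 5 monocyte markers 1 was called higher and 1 lower, with sums of 517 to 594 and 448 to 539 CPM. Adipocyte markers were called higher in 7 of 8 genes, at 99.0 to 109 and 175 to 233 CPM. Of 8 markers of marrow stroma and osteoblasts 3 were called lower, and all 6 B cell markers were called higher. None of 6 endothelial and none of 6 T and NK cell markers was called.

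**Figure D3:**
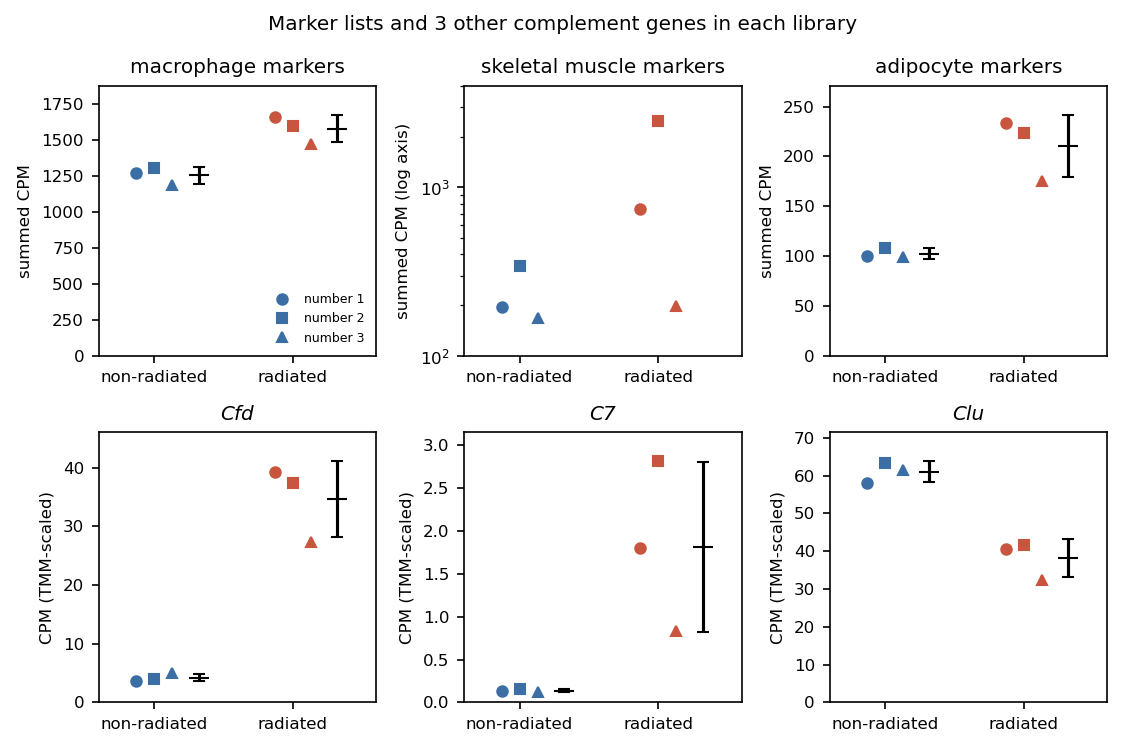
Upper row, summed CPM of macrophage, skeletal muscle (log axis, points only) and adipocyte markers by library. Lower row, CPM of Cfd, C7 and Clu. Circles, squares and triangles are libraries 1, 2 and 3, and bars are mean and SD. Muscle markers are high in radiated libraries 1 and 2 alone (745 and 2465 CPM), while Cfd and C7 are higher and Clu lower in all 3 radiated libraries.

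Of 50 other complement genes 34 passed the filter, 5 rose and 1 fell. That is 17.6% called and 14.7% called higher, beside 7.8% and 4.56% of all genes tested. The 34 had a median log2 fold change of -0.067 with 15 of 34 above 0. Mbl2 had no count in any library. Neither C1ra nor C1s1, which encode the proteases of the C1 complex, was called, at log2 fold changes of -0.021 and 0.21 (edgeR p 0.947 and 0.545 after adjustment). The ficolins, which start the lectin pathway, had values of -0.27 for Fcnb and 0.19 for Fcna (0.113 and 0.218). None of the 8 classical and lectin genes tested was called in the main edgeR fit. Fcnb was called lower with no filter (adjusted p 0.0426) and with DESeq2's Wald test (adjusted p 0.0243).

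Cfd, factor D or adipsin, which cuts factor B and is abundant in fat cells, was at 3.70, 4.03 and 4.93 CPM in non-radiated and at 39.2, 37.4 and 27.3 CPM in radiated libraries. All radiated libraries stood far above the controls, at a log2 fold change of 3.03 (± 0.16 SE, edgeR p 1.43e-05 after adjustment). C7, a component of the membrane attack complex, had 5, 4 and 5 counts in non-radiated and 68, 150 and 37 counts in radiated libraries. Its log2 fold change was 3.72 (± 0.52 SE, edgeR p 0.00277 after adjustment), from 2.73 to 4.07 over the alternatives and called in each. Radiated library 2, with the most muscle RNA, had the most C7, and library 3, with the least of the 3, had the least. With the muscle covariate its value was 2.73 (adjusted p 0.0013). With C6 at -0.15 (0.630), C7 was the terminal component called among the 4 tested.

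Clu, clusterin, which blocks the attack complex, was at 58.0, 63.4 and 61.6 CPM in non-radiated and at 40.6, 41.8 and 32.4 CPM in radiated libraries and fell, with a log2 fold change of -0.67 (± 0.095 as SE, edgeR p 0.00306 after adjustment). Clu lost its call under library totals alone (adjusted p 0.261).

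On cell surfaces, Susd4, an inhibitor of the classical convertase, rose by 1.08 on the log2 scale (± 0.22 SE, edgeR p 0.0186 after adjustment). Its call was lost without non-radiated library 1 (adjusted p 0.0768) or 3 (0.0580). Cr1l, the mouse inhibitor Crry, and Cd55, decay accelerating factor, were at -0.059 and 0.072 (0.628 and 0.591). Cd93, once described as a C1q receptor, rose by 0.39 (± 0.062 SE, edgeR p 0.00582 after adjustment). That call did not hold when library totals alone set the scale (0.0909). Cr2, the C3d receptor of B cells, rose by 0.38 (edgeR p 0.0266 after adjustment). It missed the threshold in 6 of 14 settings. These were library totals alone (0.176), the muscle covariate (0.146) and 4 of the fits with 1 library left out: non-radiated 2 (0.0960), non-radiated 3 (0.0614), radiated 1 (0.114) and radiated 2 (0.0911). Itgam and Itgb2, the chains of complement receptor 3, were at -0.29 and -0.23 (0.0723 and 0.141), not called in the main edgeR fit. Itgam was called lower in 3 of 14 alternatives and Itgb2 in 2.

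**Figure D4:**
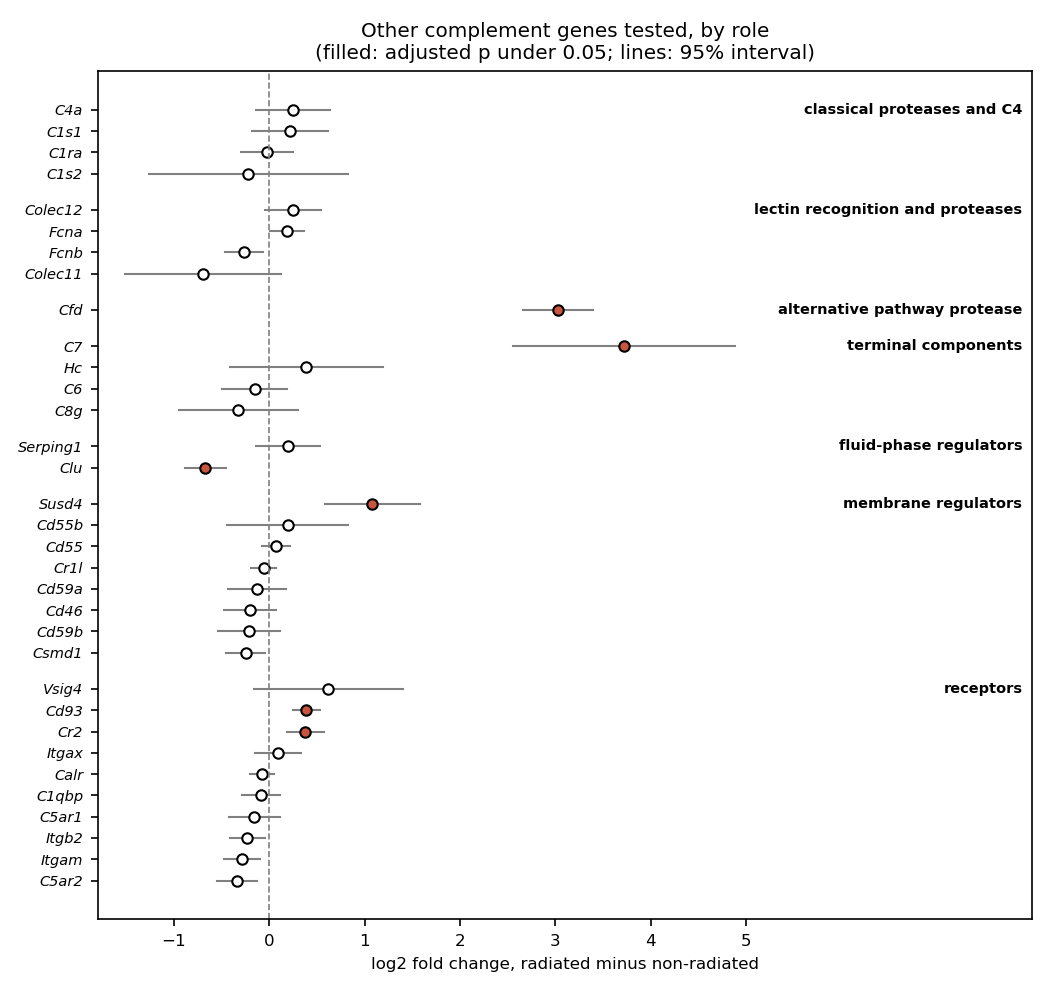
Log2 fold change, radiated minus non-radiated (horizontal axis), of the other complement genes tested, except 1 that is not reported here, grouped by role, with 95% intervals. Filled points have an edgeR adjusted p under 0.05. Cfd at 3.03 and C7 at 3.72 stand far to the right, and Clu at -0.67 is the filled point on the left.

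Genes outside the pathway with the most similar profiles were sought among 10004 genes averaging 10 CPM or more, by the root mean square difference of centred log2 CPM over the 6 libraries. For the mean of the C1q chains these were Fcer2a, Lrp1 and Fbn1, at 0.053, 0.054 and 0.056, where the median gene was at 0.33. Fcer2a encodes the low-affinity IgE receptor of B cells, Lrp1 an endocytic receptor and Fbn1 fibrillin, a matrix protein. Their own log2 fold changes were 0.54, 0.56 and 0.61. For C3ar1 they were Sulf2, Susd2 and Trem2, at 0.048, 0.058 and 0.066 with a median gene at 0.41. Trem2, a lipid receptor of macrophages, was also on the macrophage list. For Cfb they were Gbp2, Gm20547 and H2-Eb1, at 0.13, 0.14 and 0.14, where the median gene was at 0.48. Gbp2 is an interferon-induced GTPase, H2-Eb1 a chain of MHC class II, and Gm20547 overlaps Cfb.

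**Figure D5:**
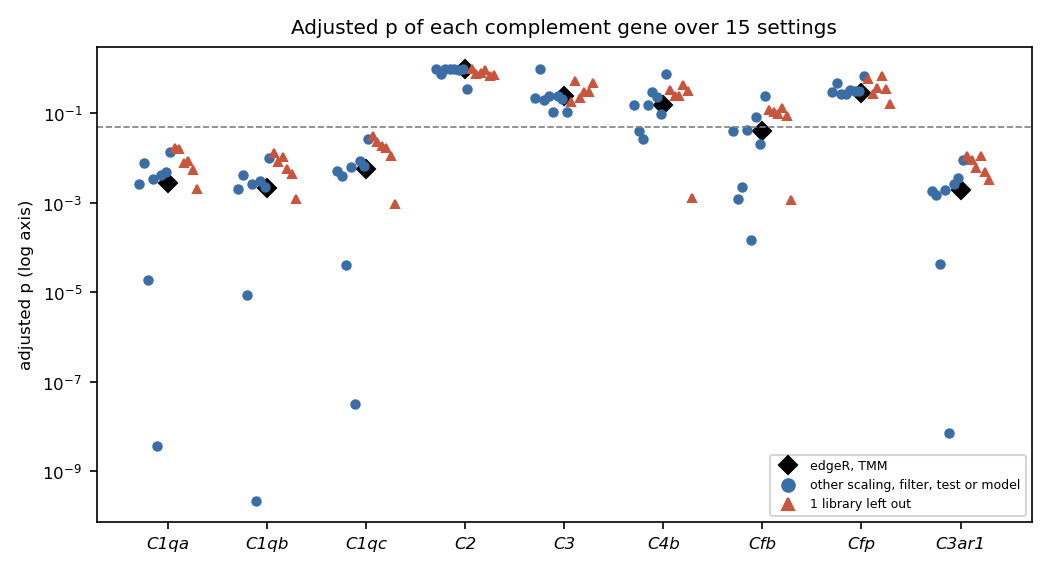
Adjusted p (vertical log axis) of each member over 15 settings: the edgeR fit with TMM (diamonds), other scalings, filters, tests and models (circles) and fits with 1 library left out (triangles). The dashed line is 0.05. The C1q chains and C3ar1 stay below the line in all 15, Cfb lies on both sides of it, and C2, C3 and Cfp stay above it.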

How the data were processed

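RNA was measured in 3 radiated and 3 non-radiated femur pieces, with a stranded mRNA kit per the labels' protocols. The deposited table gives whole-number counts per gene, made by the authors, and RPKM values by the authors that were not used for any test. STAR 2.5.2b, featureCounts and build mm10 are named in the submitters' processing notes, and use of strand is not given in the sources used here. Coordinates of the 9 members equal those in GENCODE M21.

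Of 43346 genes 18757 passed edgeR's filterByExpr (count 10 and total 15 as minima) and were scaled by TMM and tested with edgeR 4.0.16 (R 4.3.3) with group as the only term. A call is a Benjamini-Hochberg adjusted p under 0.05. SE is the size of the log2 fold change over the square root of F. Total counts, 34034251 to 48708383, set the precision. A log2 CPM used a prior count of 2. Also run were library totals, size factors of DESeq2 1.42.0, no filter, a mean of 1 CPM, DESeq2's Wald test, limma-voom (limma 3.58.1), a replicate block, a muscle covariate and each library left out. Sums of overlapping or near-identical rows, and macrophage markers without those that fell, were added after seeing the data. C4 transcripts were compared with BLAST 2.17.0. In a test on simulated counts of 18757 genes, the fit called 88% of genes set to differ 2-fold, 99% at 4-fold, and 13 of 18360 with no set difference. The genes set to differ averaged at least 1 CPM. The largest fold of a member was 1.76, below both settings, so these shares do not give the power for the members.

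The rule for naming genes took all members, the other complement genes called, the 2 most abundant per role, the called macrophage markers and the 3 most similar profiles per called member. Gm20547, C4a, Mbl2, Zbtb12 and single markers of other cells were named for what they show about a member. 1 gene on the complement lists counts in their totals but is not reported here. Members and lists were chosen with earlier results of these data known. Of 149 list entries all were found, 2 of them (Adgre1 and Cd55b) by gene ID. Replicates within a group were not duplicates: chi-square divided by its degrees of freedom was 16.6 to 580. Numbers 1 to 3 are shared by the groups. Deviations from group means correlated across genes at 0.166, 0.277 and 0.187 for the same number and at -0.170 to -0.0082 for different numbers. Because deviations cancel out within each group, positive values for the same number push the others negative. By this check, which does not come from the labels, the numbers were taken to pair the libraries. Only the replicate block and the same-numbered differences used them in this way, and the main fit was unpaired. The check cannot tell legs of the same mouse from libraries handled together.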

Additional observations from a re-analysis of the deposited data

How the results depend on the processing

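Of the members, the C1q chains and C3ar1 were called in all 14 alternative settings, Cfb in 7, C4b in 3, and C2, C3 and Cfp in none. The count of members called was 4 to 6 over the fits that left out 1 library, and 5 with the replicate block, which changed no member's call. The members' median ran from 0.49 to 0.65 over those fits. Among other complement genes the count was 3 under library totals alone and 11 with no filter or with DESeq2's Wald test, against 6, and 4 to 7 with 1 library left out. Of these calls, 3 of 3 were higher under library totals, 6 of 11 with no filter and 5 of 11 with the Wald test, against 5 of 6. With the muscle covariate the count was 8, with 4 higher. With the block it was 8, with 5 higher, and the additions included C5ar2, called lower (adjusted p 0.0355). C5ar2 had a negative value in every setting and was called in 4 of 14 alternatives. Over all genes the count was 764 to 1376 with 1 library left out, against 1463. The 3 lowest counts, 764, 819 and 905, came on dropping radiated 1, non-radiated 2 and non-radiated 1 in turn. Under library totals alone 85.4% of calls were higher, against 58.5%. The C1q level relative to macrophage markers was 0.38. It was 0.16 without the 2 markers that fell, a choice made after seeing the data, and 0.29 against the 6 markers not called. It was 0.32 to 0.45 with 1 library left out, where the smallest p is also 0.1.

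Signs turned in genes that were not called. Under library totals alone the values were 0.011 for C3, 0.17 for C1ra, 0.037 for C6, 0.14 for Cr1l, 0.047 for Cd59a, 0.039 for C5ar1 and 0.12 for C1qbp and Calr. With the muscle covariate they were -0.31 for C2, -0.093 for C1s1 and Serping1, 0.013 for C1s2, -0.11 for Itgax and -0.073 for Vsig4. With 1 library left out they ran from -0.17 to 0.15 for C2, -0.10 to 0.086 for C1ra, -0.25 to 0.051 for Cd59a and -0.59 to 0.14 for C1s2. The cause was not tested.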
